A study of Mus musculus with 12 samples.

Results

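A set of 8 genes that mark granule neurons of the dentate gyrus was followed through RNA sequencing libraries of mouse dorsal hippocampus. They are Prox1, C1ql2, C1ql3, Dsp, Calb1, Stxbp6, Trpc6 and Npnt, chosen by name as rows of the 12 count files. All 8 were present among 24421 genes, and all 8 passed the filter on low counts that left 15622 genes for testing. The mice were males aged 4 to 5 months on a mixed 129sv/C57BL/6j background. They were Mbnl2 KO or Mbnl2 WT, and each genotype was sampled as house controls and as trained animals, with 3 libraries in each of the 4 groups. Every library came from an animal of its own by its animal number. The labels do not name the targeted allele, the training task or the time from training to dissection.

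Granule neurons form the densely packed cell layer of the dentate gyrus. They receive cortical input through the perforant path and send mossy fibres to the pyramidal neurons of CA3 and to hilar mossy cells. Their identity depends on the homeobox factor Prox1, and their mossy fibre terminals release the C1q-like proteins that the C1ql2 and C1ql3 genes encode. Several of these markers are made elsewhere too. Calb1, for example, is also expressed by many CA1 pyramidal neurons and interneurons.

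Mbnl2 itself, a regulator of alternative splicing, was counted higher in all 6 libraries labelled KO (454 to 542 CPM) than in all 6 labelled WT (315 to 365 CPM). CPM is the usual measure of counts scaled to library size, here with TMM factors. Because this gene-level count sums reads over all exons and the allele is not known, the genotype labels are not checked by it, and every direction below is that of the labels. Libraries held 19737929 to 27427076 counts, where 3 counts amount to 0.105 to 0.154 CPM. All 8 granule neuron markers lay above this floor in every library, with the lowest value being 7.08 CPM for Trpc6, so the labelled tissue held the transcripts that define granule neurons.

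The promoters of 3 of the genes are shown because these genes recur in the results below, Prox1 as the factor that defines the cell type, and C1ql2 and Trpc6 as the 2 markers whose levels departed most from the other 7. Each sequence is the 250 bases before the start site in RefSeq, build GRCm38.p6, written 5′ to 3′ along the gene. Capitals mark matches on either strand to an E-box, CAGATG (reverse CATCTG), a GC box, GGGCGG (reverse CCGCCC), and a TATA motif, TATAAA (reverse TTTATA).
Prox1 chr1:190170828-190171077, minus strand: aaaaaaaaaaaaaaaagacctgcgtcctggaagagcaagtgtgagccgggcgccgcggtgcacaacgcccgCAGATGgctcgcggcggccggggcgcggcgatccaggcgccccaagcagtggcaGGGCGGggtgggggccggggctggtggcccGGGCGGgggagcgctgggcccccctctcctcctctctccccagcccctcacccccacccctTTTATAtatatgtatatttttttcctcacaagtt
C1ql2 chr1:120340332-120340581, plus strand: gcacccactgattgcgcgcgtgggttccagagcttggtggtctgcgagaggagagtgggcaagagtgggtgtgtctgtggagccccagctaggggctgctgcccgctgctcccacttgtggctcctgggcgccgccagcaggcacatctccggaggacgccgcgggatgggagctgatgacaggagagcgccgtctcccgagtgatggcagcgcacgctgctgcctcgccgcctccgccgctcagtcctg
Trpc6 chr9:8543892-8544141, plus strand: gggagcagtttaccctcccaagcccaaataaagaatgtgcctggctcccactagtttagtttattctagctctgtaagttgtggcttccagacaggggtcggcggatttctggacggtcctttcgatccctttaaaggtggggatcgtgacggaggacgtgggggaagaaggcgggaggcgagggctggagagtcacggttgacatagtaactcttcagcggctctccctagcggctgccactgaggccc

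The Prox1 sequence shown held all 3 motifs, and the C1ql2 and Trpc6 sequences held none of them. Another Prox1 entry, chr1:190169516-190169765, is not shown and held GGGCGG only. Of the 8 genes, 7 had a promoter entry, with 9 entries in all. CAGATG was found for 1 of these 7 genes, GGGCGG for 4 and TATAAA for 1. Counted by entry, CAGATG was in 1 of the 9, GGGCGG in 5 and TATAAA in 1. Over all 32851 promoter entries, the same windows held CAGATG in 14.4%, GGGCGG in 32.7% and TATAAA in 12.4%. These matches describe letters in a window and no binding.

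Prox1, on chromosome 1 (190118035 to 190170714, mm10, minus strand), encodes the transcription factor that sets and maintains granule neuron fate. It had 122, 46.9 and 91.8 CPM in KO house controls (replicates 1 to 3), against 169, 98.5 and 68.2 CPM in WT house controls. In trained mice it had 105, 42.8 and 77.6 CPM in KO libraries, against 104, 191 and 115 CPM in WT libraries. The KO and WT values overlapped under both treatments, and the 2 lowest of the 12 values belonged to replicate 2 of the KO house controls and of the KO trained mice.

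C1ql2 (chromosome 1, 120340582 to 120343174) and C1ql3 (chromosome 2, 13003457 to 13011806) encode secreted C1q-like proteins that organise synapses through the adhesion receptor Adgrb3 and kainate receptors. C1ql2 had 155, 19.9 and 67.3 CPM in KO house controls, against 170.1, 91.6 and 78.5 CPM in WT house controls. In trained mice C1ql2 had 78.0, 39.3 and 67.0 CPM in KO libraries, against 87.4, 159.6 and 92.4 CPM in WT libraries. The trained KO values of C1ql2 all lay below the trained WT values, which was true of no other marker under either treatment. Over all genes tested, 14.0% had trained KO and WT values that did not overlap in either direction, and 6.38% had them with KO lower.

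C1ql3 had 134, 49.5 and 80.5 CPM in KO house controls, against 173, 99.6 and 60.0 CPM in WT house controls. In trained mice C1ql3 had 127, 74.5 and 100.3 CPM in KO libraries, against 99.1, 204 and 125 CPM in WT libraries. Its groups overlapped under both treatments. The ratio of C1ql2 to C1ql3 ran from 0.401 in KO house control replicate 2 to 1.31 in WT house control replicate 3. The ratio was 1.16, 0.401 and 0.835 in KO house controls, against 0.982, 0.920 and 1.31 in WT house controls, and these groups overlapped. In the KO trained libraries this ratio was 0.612, 0.528 and 0.668, and in the WT trained libraries it was 0.882, 0.784 and 0.739, with no overlap. It was looked at after the values of both genes were seen and was not tested.

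Dsp (chromosome 13, 38151294 to 38198577) encodes desmoplakin, a plaque protein that ties desmosomes to intermediate filaments and that is, within the brain, a known mark of granule neurons. It had 186, 56.4 and 169 CPM in KO house controls, against 257, 145 and 107 CPM in WT house controls. In trained mice Dsp had 209, 67.5 and 169 CPM in KO libraries, against 156, 297 and 182 CPM in WT libraries. Replicate 2 was the low KO library under both treatments, and the other 4 KO libraries lay inside the WT range.

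Calb1 (chromosome 4, 15881264 to 15908064) encodes calbindin, a cytoplasmic calcium buffer of mature granule neurons. It had 124, 61.2 and 73.0 CPM in KO house controls, against 158, 106 and 74.1 CPM in WT house controls. In trained mice Calb1 had 142, 91.1 and 94.0 CPM in KO libraries, against 106, 198 and 111 CPM in WT libraries. Both pairs of groups overlapped.

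Stxbp6 (chromosome 12, 44852484 to 45074709) encodes amisyn, a syntaxin-binding protein that regulates SNARE complexes in exocytosis. It had 187, 68.2 and 120.3 CPM in KO house controls, against 256, 165 and 102 CPM in WT house controls. In trained mice Stxbp6 had 146, 87.9 and 113 CPM in KO libraries, against 142, 282 and 159 CPM in WT libraries. The trained groups overlapped only through KO replicate 1 and WT replicate 1.

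Trpc6 (chromosome 9, 8544142 to 8680741) encodes a cation channel opened by receptors that activate phospholipase C. It had 17.9, 7.08 and 7.77 CPM in KO house controls, against 39.0, 20.9 and 14.3 CPM in WT house controls. In trained mice Trpc6 had 24.0, 13.3 and 11.6 CPM in KO libraries, against 17.7, 34.8 and 21.0 CPM in WT libraries. In each treatment KO replicates 2 and 3 were below all 3 WT libraries, and KO replicate 1 was within the WT range.

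Npnt (chromosome 3, 132881745 to 132950291) encodes nephronectin, an extracellular matrix ligand of the integrin formed by the Itga8 and Itgb1 products. It had 61.4, 37.1 and 56.9 CPM in KO house controls, against 85.2, 57.7 and 37.6 CPM in WT house controls. In trained mice Npnt had 55.4, 34.1 and 49.5 CPM in KO libraries, against 44.2, 102 and 56.6 CPM in WT libraries. Its KO libraries spread less than its WT libraries, at 49.1 ± 11.1 CPM in KO and 63.8 ± 24.7 CPM in WT (SD, n = 6 each).

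**Figure D1:**
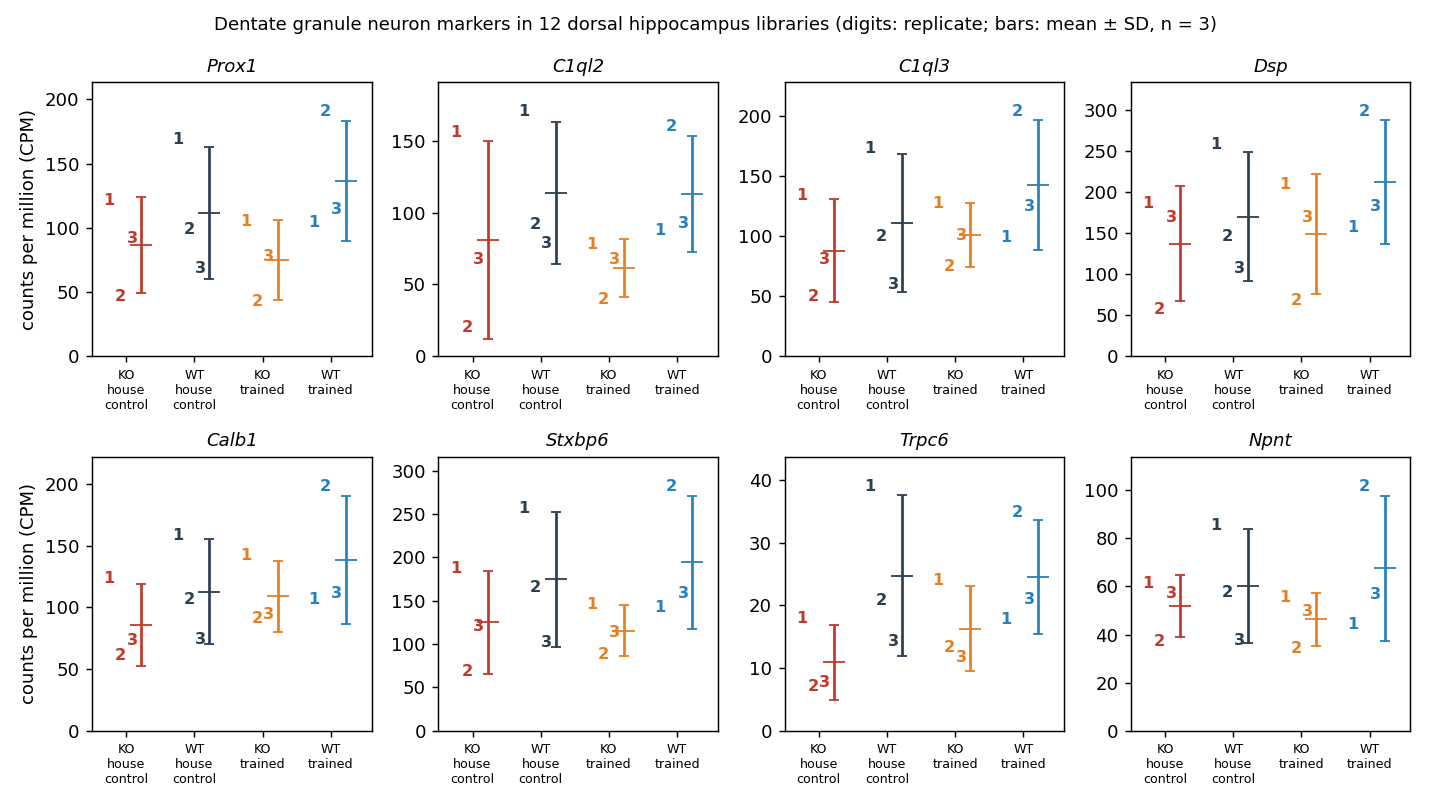
Level of each of the 8 granule neuron markers in CPM (y axis, linear from 0) by group (x axis), with KO left of WT for each treatment. Digits are the 3 libraries of a group by replicate number, and bars beside them are the mean ± SD (n = 3). In the 2 KO groups replicate 2 is the low point of every panel apart from trained Trpc6, where replicate 3 is lower, and in WT trained mice replicate 2 is the high point of every panel.

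The order of the 4 group means was alike among the markers. In all 8, both KO groups averaged below both WT groups. The lowest mean was that of KO trained mice for Prox1, C1ql2, Stxbp6 and Npnt and that of KO house controls for C1ql3, Dsp, Calb1 and Trpc6. The highest was that of WT trained mice for 6 markers, and that of WT house controls for C1ql2 and Trpc6. Each of the 3 steps between neighbouring groups in these orders was smaller than the larger SD of the pair, for all 8 markers. Even the whole span of the group means was within the largest SD for C1ql2, C1ql3, Dsp and Npnt.

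Per kilobase of annotated exon, the markers differed widely in level. In WT libraries C1ql2 averaged 56.6 ± 20.2 CPM per kilobase and C1ql3 50.0 ± 20.9, followed by Stxbp6 at 34.8 ± 13.2, Calb1 at 25.9 ± 9.21, Dsp at 19.8 ± 7.49, Prox1 at 14.8 ± 5.50 and Npnt at 12.7 ± 4.92. Trpc6 was the scarcest at 4.86 ± 1.96 (SD, n = 6 for each gene). Only the step from Npnt to Trpc6 was larger than the spread of the genes beside it. Exons of Prox1 overlap Prox1os, those of C1ql3 overlap Gm37824 and Gm37811, and those of Dsp overlap Gm10129. No source used here says whether reads were counted by strand, so reads of these pairs cannot be told apart.

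Averaged over both treatments, the comparison of genotypes asked whether granule neuron markers differ when Mbnl2 is disrupted. All 8 markers had lower estimates in the KO-labelled libraries, and none passed the test over all genes. The median log2 fold change of the 8 was -0.52, against -0.01 over all genes tested, of which 52.0% were below 0. The 8 markers varied together over the libraries (median pairwise correlation 0.89), so their 8 signs are not separate outcomes. In bulk tissue, fewer granule neurons, a smaller share of them in the dissection and less transcript per granule neuron cannot be told apart. The tests below are those of edgeR by quasi-likelihood, adjusted over all genes by Benjamini-Hochberg at a threshold of 0.05. They called 0 of the 8 markers and 0.576% of all genes in this comparison.

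Trpc6 had the lowest estimate. It averaged 13.6 ± 6.43 CPM in KO libraries and 24.6 ± 9.94 CPM in WT libraries (SD, n = 6 each), which is 1.84-fold lower (log2 fold change -0.88, SE 0.34, 95% interval -1.62 to -0.14). Its unadjusted p was 0.0244 and its adjusted p was 0.261 by edgeR, and 5 of the 6 KO libraries lay below the WT median. By edgeR Trpc6 was the only marker with an unadjusted p under 0.05. Of all genes, 14.4% reached this, and 5.89% did so with a lower KO level. By DESeq2, 3 of the 8 markers had an unadjusted p under 0.05, at 0.00777 for Trpc6, 0.0359 for Stxbp6 and 0.0466 for Prox1. DESeq2 called 0 of the 8, beside 5.04% of all genes. The share of all genes with an unadjusted p under 0.05 by DESeq2 was not counted, so the 3 cannot be set against it. An exact two-sided permutation test over the 12 libraries gave Trpc6 a p of 0.0390, unadjusted for the 8 markers.

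C1ql2 averaged 71.2 ± 46.5 CPM in KO libraries and 113 ± 40.4 CPM in WT libraries (log2 fold change -0.68, SE 0.43, 95% interval -1.63 to 0.26, edgeR adjusted p = 0.493). Prox1 averaged 80.9 ± 31.5 CPM in KO libraries and 124 ± 46.1 CPM in WT libraries (-0.61, 95% interval -1.31 to 0.09, edgeR adjusted p = 0.409). Stxbp6 averaged 120.4 ± 42.2 CPM in KO libraries and 184 ± 69.8 CPM in WT libraries (-0.61, 95% interval -1.28 to 0.05, edgeR adjusted p = 0.386). For each of these 3, the interval reached 0 while 5 of 6 KO libraries were below the WT median.

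Estimates of the other 4 were nearer to 0. C1ql3 was at -0.42 (95% interval -1.11 to 0.28), Dsp at -0.41 (-1.23 to 0.41), Npnt at -0.38 (-0.95 to 0.19) and Calb1 at -0.37 (-0.93 to 0.20), all log2 fold changes of KO over WT. Their edgeR adjusted p ran from 0.530 to 0.650. For Dsp, 2 of the 6 KO libraries were below the WT median, the fewest among the 8. For Npnt 5 of the 6 were, as for Trpc6, C1ql2, Prox1 and Stxbp6, and for C1ql3 and Calb1 4 of the 6 were. The spread of such counts over all genes was not worked out. The exact permutation p of the 7 markers other than Trpc6 ran from 0.0736 for C1ql2 to 0.281 for C1ql3. The 6 KO and 6 WT values overlapped for every marker, where 1.78% of all genes had values that did not.

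In house controls the 8 log2 fold changes of KO over WT ran from -1.18 for Trpc6 to -0.22 for Npnt, with a median of -0.38, and 50.2% of all genes were below 0. By edgeR 0 of the 8 were called, beside 0.0128% of all genes. Trpc6 averaged 10.9 ± 6.03 CPM in KO house controls and 24.7 ± 12.8 CPM in WT house controls (SD, n = 3 each), with an SE of 0.48 and an edgeR adjusted p of 0.436 (unadjusted 0.0326, and 10.7% of all genes had an unadjusted p under 0.05). The authors' deposited table for this comparison gives Trpc6 a log2 fold change of -1.17 and an adjusted p of 0.348. No marker had KO and WT house control values that did not overlap, and 13.0% of all genes did.

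In trained mice the 8 estimates ran from -0.88 for C1ql2 to -0.34 for Calb1, with a median of -0.56, and 52.4% of all genes were below 0. By edgeR on all 12 libraries 0 of the 8 were called, again beside 0.0128% of all genes. None had an unadjusted p under 0.05 in that fit, and 6.45% of all genes had. Prox1 averaged 75.1 ± 31.1 CPM in KO trained mice and 136 ± 47.1 CPM in WT trained mice (SD, n = 3 each), a log2 fold change of -0.86 with an SE of 0.45 (edgeR adjusted p = 0.811). C1ql2 averaged 61.4 ± 19.9 CPM in KO trained mice and 113 ± 40.3 CPM in WT trained mice (edgeR adjusted p = 0.896). The authors' deposited table for this comparison gives adjusted p-values of 0.199 for C1ql2, 0.303 for Stxbp6 and 0.327 for Prox1. Their unadjusted p-values there are 0.00380, 0.00862 and 0.00976. An edgeR fit of the trained libraries alone gave these markers unadjusted p-values of 0.0285, 0.0405 and 0.0485 (adjusted 0.627, 0.644 and 0.666). The other markers stayed above 0.05 unadjusted in both, and the share of all genes under 0.05 was not counted for either. At an adjusted p under 0.05, the authors' deposited tables call 0 of the 8 markers in each of the 4 comparisons they hold. Of the genes with an adjusted p, the authors' deposited tables call 0.558% for KO over WT in house controls, 0.834% for KO over WT in trained mice, 0.0716% for training in KO mice and 0.117% for training in WT mice.

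**Figure D2:**
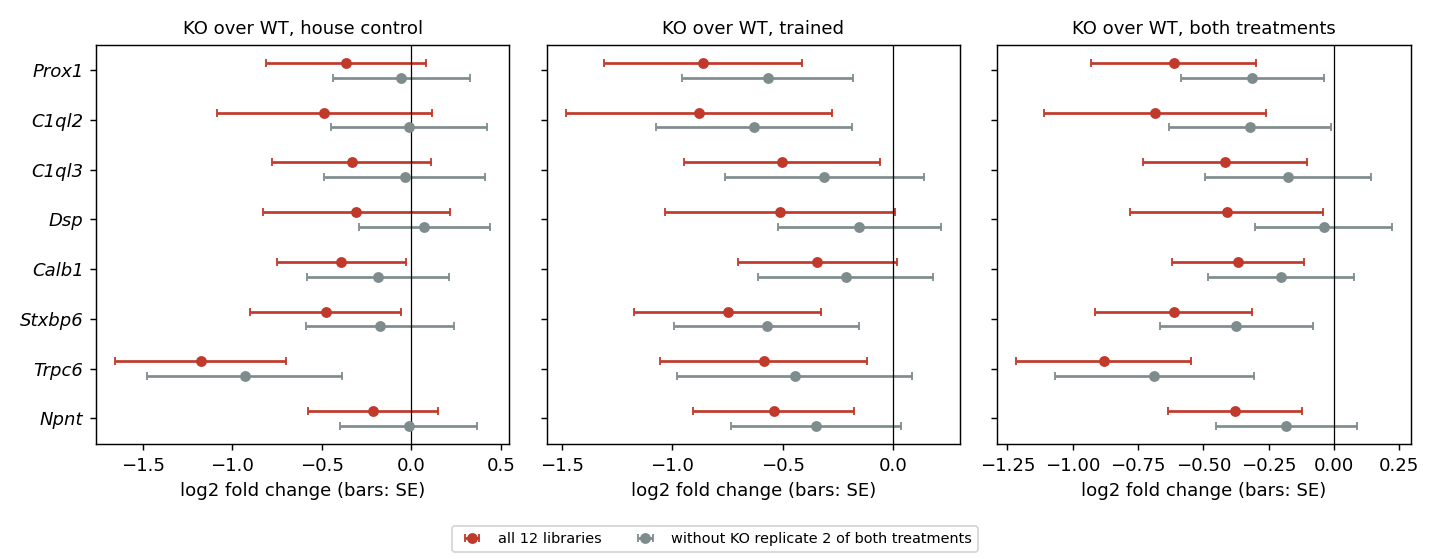
Log2 fold change of KO over WT (x axis) for each marker (y axis), in house controls, in trained mice and over both treatments. Points are edgeR estimates and bars their SE, in red for all 12 libraries and in grey without replicate 2 of both KO groups. All red points lie left of 0, and the grey points lie to the right of the red ones in every row. The 2 KO libraries left out are the lowest of all in the marker mean, so this shift was largely fixed by leaving them out.

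Training moved none of the markers past the threshold in either genotype. In KO mice the log2 fold changes of trained over house control ran from -0.39 for C1ql2 to 0.58 for Trpc6, with 4 above 0 (49.1% of all genes), 4 below and a median of 0.00. In WT mice they ran from -0.01 for Trpc6 to 0.36 for C1ql3, with 6 above 0 (48.3% of all genes) and a median of 0.23. By edgeR 0 of the 8 were called in each genotype, as were 0.00% of all genes, and 0 of the 8 had an unadjusted p under 0.05 (3.01% of all genes in KO and 9.82% in WT). These comparisons use the same libraries as those between the genotypes.

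Averaged over both genotypes, 7 of the 8 training estimates were above 0, where 47.7% of all genes were. By edgeR 0 of the 8 were called, as were 0.00% of all genes, and none had an unadjusted p under 0.05, which 11.2% of all genes had. Calb1 had the highest, at 109 ± 28.8 CPM in KO trained and 138 ± 51.9 CPM in WT trained mice, against 85.9 ± 33.2 CPM in KO house controls and 113 ± 42.3 CPM in WT house controls (log2 fold change 0.32, SE 0.25, 95% interval -0.24 to 0.88, edgeR adjusted p = 0.570). C1ql2 was the marker below 0, at -0.20 (95% interval -1.14 to 0.74). The difference between the training effects of KO and WT mice ran from -0.50 for Prox1 to 0.59 for Trpc6 on the log2 scale. No marker was called for it by edgeR, where 0.00% of all genes were, and the intervals were wide, at -1.89 to 0.90 for Prox1 and -0.88 to 2.07 for Trpc6.

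The markers varied together from library to library. Over the 12 libraries, Pearson correlations of log2 CPM (prior count 2) between the 28 pairs of markers ran from 0.73 to 0.97, with a median of 0.89. With group means subtracted they ran from 0.72 to 0.99, with a median of 0.90. These points share library, dissection and depth, and the correlations are given as a description. KO house control replicate 2 was the lowest library for 6 markers and among the 2 lowest for all 8. KO trained replicate 2 was the lowest for Prox1 and Npnt. WT trained replicate 2 was the highest for 6 markers, and WT house control replicate 1 was the highest for C1ql2 and Trpc6.

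Stxbp6 followed the rest most closely, with a correlation of 0.99 with the mean of the other 7 markers, and Trpc6 least closely, at 0.86. The range over libraries was widest for C1ql2, 8.56-fold from lowest to highest, and narrowest for Npnt, at 2.98-fold. Relative to the other 7 markers, C1ql2 varied with an SD of 0.43 on the log2 scale, from -0.99 in KO house control replicate 2 to 0.68 in KO house control replicate 1. Trpc6 varied with an SD of 0.40, and its lowest relative value was -0.95 in KO house control replicate 3. Stxbp6 varied with an SD of 0.10. Relative to the other 7, Trpc6 averaged -0.18 in KO libraries and 0.18 in WT libraries, and C1ql2 averaged -0.17 in KO libraries and 0.17 in WT libraries.

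The libraries lowest in granule neuron markers were those highest in striatum and septum transcripts. Summed levels of the 9 striatum and septum markers ran from 249 to 1358 CPM in KO libraries and from 239 to 898 CPM in WT libraries. The 3 libraries highest in them, KO house control replicate 2, KO trained replicate 2 and WT house control replicate 3, were the 3 lowest in the mean of the 8 granule neuron markers. None of the 9 markers was at 0 in any library. Summed levels of 8 neocortex markers were 324 CPM in KO house control replicate 2 and 337 CPM in KO trained replicate 2, and 163 to 195 CPM in the other 10 libraries, among them WT house control replicate 3 at 175 CPM. In the comparison of genotypes, 8 of the 9 striatum and septum markers were above 0 in house controls and 9 of 9 in trained mice, and 0 were called. Of all genes, 49.8% were above 0 in house controls and 47.6% in trained mice, and 0.0128% were called in each.

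Without KO house control replicate 2 and KO trained replicate 2, the marker medians of KO over WT were -0.05 in house controls, -0.40 in trained mice and -0.26 over both, in place of -0.38, -0.56 and -0.52. In that fit Dsp was at 0.07 in house controls, and Trpc6 kept the lowest estimate over both treatments, at -0.69. Without all 3 libraries named above, an alternative added after the data were seen, the medians were -0.33, -0.41 and -0.38. In that fit 8 of 8 were below 0 over both treatments. Both fits leave out the libraries lowest in the marker mean, so the shifts of these medians were largely fixed by that choice. Leaving out 1 library at a time moved the house control median from -0.76 without KO replicate 1 to -0.01 without WT replicate 1, where 4 of 8 were below 0. The trained median then ran from -0.90 without KO replicate 1 to -0.21 without WT replicate 2. No label names a run of animals. From the order of animal and library numbers in the titles, the libraries were split into an earlier run of 8, 2 a group, and a later run of 4, 1 a group. Animal numbers also break inside the earlier run, with its house controls all before that break and most of its trained mice after it. Within the earlier run the median over both treatments was -0.76 and Trpc6 was at -0.88 (edgeR adjusted p = 0.673), and the later run gives no test.

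**Figure D3:**
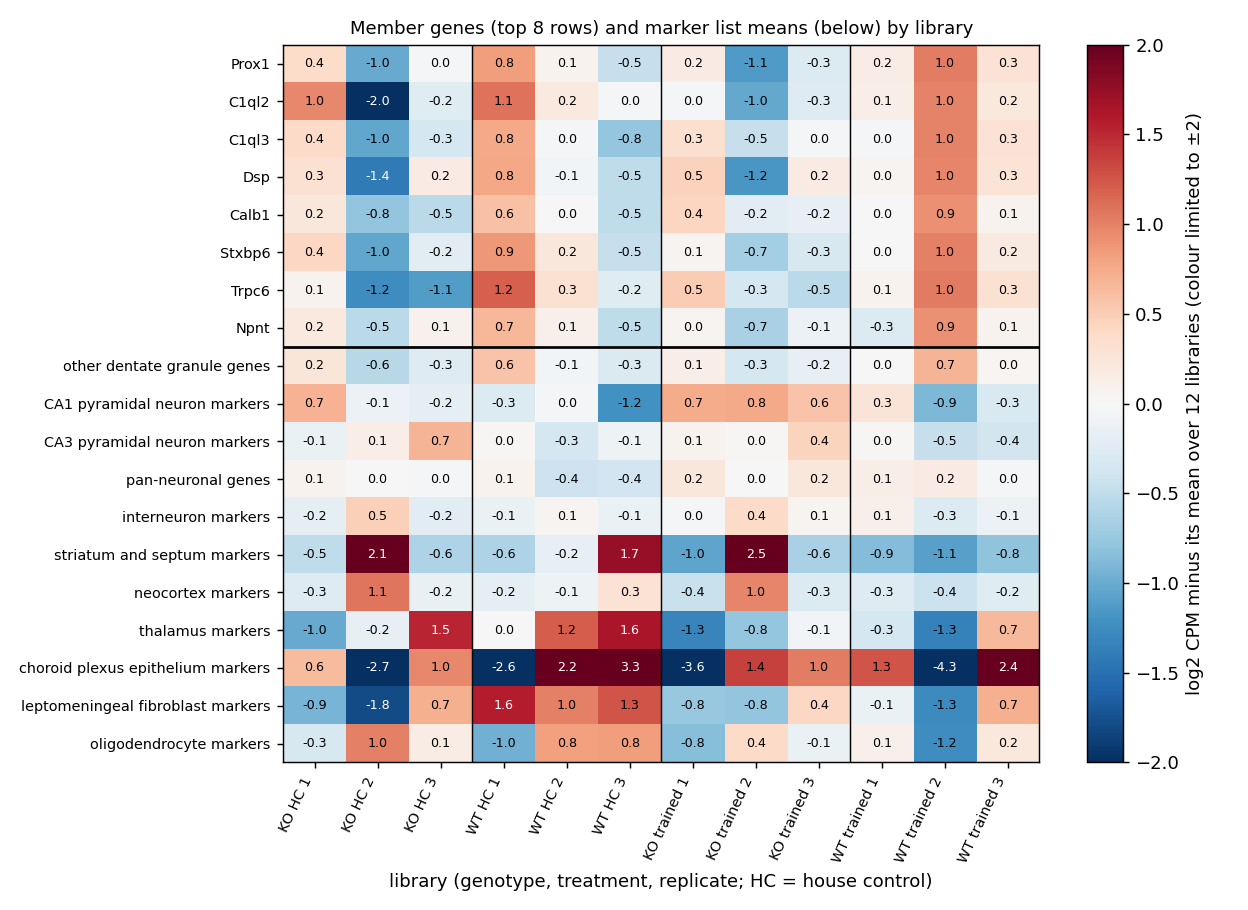
Log2 CPM minus its mean over the 12 libraries (colour and printed number) for the 8 markers and for the mean of each marker list (rows) in every library (columns). Colours run from blue, below the mean, to red, above it, and are limited at 2 either way. KO replicate 2 of both treatments is blue in the marker rows and red in the striatum and septum row, and WT house control replicate 1 and WT trained replicate 2 are red in the marker rows.

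Markers of other tissue also differed between libraries. The mean of the 7 oligodendrocyte markers was lowest, at 7.44 and 7.72 on the log2 CPM scale, in WT trained replicate 2 and WT house control replicate 1, the 2 libraries highest in the granule neuron markers. It was highest, at 9.69, in KO house control replicate 2. Summed choroid plexus markers (10 genes) ran from 72.3 to 4733 CPM in KO libraries and from 51.5 to 15109 CPM in WT libraries, and thalamus markers (9 genes) from 58.7 to 361 CPM in KO and from 118 to 434 CPM in WT. By summed CPM, KO trained replicate 2, which was low in the granule neuron markers, had the lowest thalamus level. By mean log2 CPM, the lowest thalamus level was that of WT trained replicate 2, the library highest in the granule neuron markers. Gbx2 of the thalamus list was at 0 in at least 1 library, and none of the choroid plexus and oligodendrocyte markers was. With 3 house control libraries rich in thalamus or choroid plexus RNA left out (WT replicates 2 and 3 and KO replicate 3), 1 WT house control library remains. In that fit the house control median of the granule neuron markers was -0.98 and that over both treatments was -0.84. The lone library, WT house control replicate 1, was the house control highest in these markers (1307 CPM summed). KO house control replicate 2, the lowest of all 12 libraries (346 CPM), stayed in. Lower estimates were thus largely fixed by the libraries that remained. The fit takes the lone library to vary like the other groups. The part of tissue contents in the marker differences was not tested further.

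Genes of neurons in general varied less than the granule neuron markers. The mean of 8 pan-neuronal genes stayed between 9.32 and 9.97 on the log2 CPM scale over all 12 libraries, and the mean of the 8 granule neuron markers ranged from 5.18 to 7.29. Of 8 markers of CA1 pyramidal neurons, all were above 0 over both treatments (median log2 fold change 0.75), and 0 were called. Of all genes, 48.0% were above 0 and 0.576% were called. The summed level of the CA1 markers was 460 to 843 CPM in KO libraries and 279 to 645 CPM in WT libraries. Estimates of the 8 CA1 markers ran from 0.30 to 1.86, with a lowest edgeR adjusted p of 0.0917. By edgeR 5 of the 8 had an unadjusted p under 0.05, where 14.4% of all genes had one in either direction. Mpped1 of that list was at 0.79 (edgeR adjusted p = 0.164). Of 7 CA3 pyramidal neuron markers tested, 5 were above 0 and Prss35 was called higher in KO (log2 fold change 0.77, edgeR adjusted p = 0.0473).

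**Figure D4:**
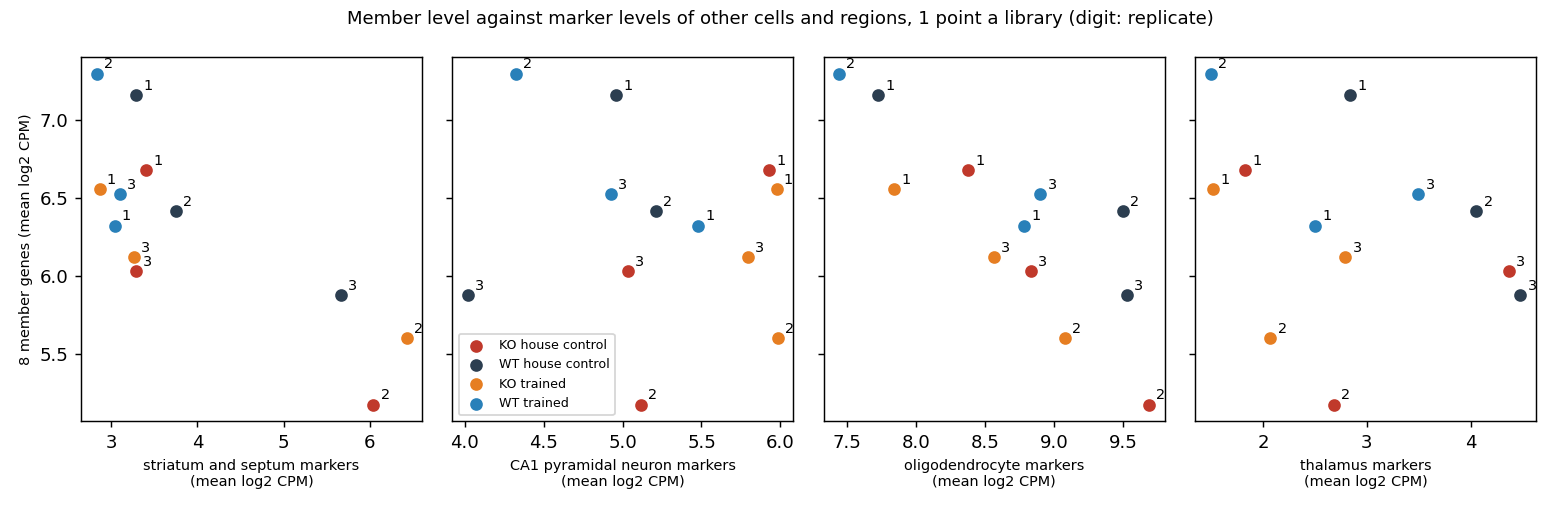
Mean log2 CPM of the 8 granule neuron markers (y axis) against the mean log2 CPM of 4 other marker lists (x axes), with 1 point a library, colours for the groups and digits for the replicate. The 3 libraries rightmost for striatum and septum markers are the 3 lowest on the y axis. The 2 libraries leftmost for oligodendrocyte markers are the 2 highest on the y axis.

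Of 16 further genes known from granule neurons, all tested, 15 had a negative log2 fold change over both treatments, with a median of -0.30, and 0 were called. Of all genes, 52.0% were negative and 0.576% were called. Most of the 16 followed the 8 markers over the same libraries (median correlation 0.88), so their signs are not separate from those of the markers. Glis3, a zinc finger transcription factor, had 21.2, 12.1 and 18.9 CPM in KO house controls, against 32.3, 27.2 and 25.7 CPM in WT house controls. In trained mice Glis3 had 21.2, 13.6 and 14.8 CPM in KO libraries, against 18.5, 30.0 and 21.4 CPM in WT libraries. Its house control groups did not overlap and its trained groups did. With KO lower, house control values did not overlap for 2 of the 16 genes, Glis3 and Pdzd2, and for 6.09% of all genes. The Glis3 estimate was below 0 (log2 fold change over both treatments -0.60, SE 0.17, unadjusted p = 0.00587, edgeR adjusted p = 0.153).

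Plk5, a polo-like kinase family member, had the lowest estimate of the 16, at -0.83 (SE 0.33, edgeR adjusted p = 0.287). It had 37.6, 11.8 and 13.3 CPM in KO house controls, against 61.3, 26.8 and 25.0 CPM in WT house controls, and 22.5, 20.5 and 22.5 CPM in KO trained mice, against 32.0, 53.5 and 29.6 CPM in WT trained mice. Its trained KO values lay below all trained WT values, as was so for 2 of the 16 genes and, as given above, for 6.38% of all genes. Pdzd2 was at -0.23 (edgeR adjusted p = 0.304). Cadps2, a regulator of dense-core vesicle release, was the gene above 0, at 0.49 (SE 0.18, edgeR adjusted p = 0.235).

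Proteins that work with the marker products were encoded by 22 further genes, of which 21 were tested. C1ql4 did not pass the filter, and 17 of the 21 had a positive log2 fold change of KO over WT, with a median of 0.13 and 0 called. Of all genes, 48.0% were positive and 0.576% were called. Adgrb3, the receptor of C1q-like proteins, was at 0.21 (SE 0.10, edgeR adjusted p = 0.371), and Nrxn3, a presynaptic neurexin, at 0.27 (edgeR adjusted p = 0.221). C1ql1, the paralog of C1ql2 and C1ql3, stayed between 9.72 and 14.7 CPM in all 12 libraries. Stx1a, a plasma membrane syntaxin, was at 0.72 (SE 0.18, edgeR adjusted p = 0.111), and Vamp2, a vesicle SNARE, at 0.28 (edgeR adjusted p = 0.137). Jup, the plakoglobin of desmosomes, was at 0.06.

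Outside the 8 markers, 14094 genes with a mean of at least 1 CPM were ranked by the correlation of their log2 CPM with the mean standardised level of the 8 markers over the 12 libraries. The 10 most alike were Rfx3 and Kbtbd11 (both 0.99), Jph1 and Cntnap5a (both 0.98), Rras2, Lrrtm4, Lin7c and Ccdc85a (all 0.97), and Msl2 and Cdc23 (both 0.96). Rfx3, a ciliary gene regulator, had 153, 71.7 and 99.0 CPM in KO house controls, against 186, 120.6 and 92.0 CPM in WT house controls. Lrrtm4, a postsynaptic adhesion protein, had the lowest genotype estimate of the 10 (log2 fold change -0.53, SE 0.20, edgeR adjusted p = 0.266). These genes were chosen for following the markers in the same libraries, so the sign of their genotype estimates is fixed largely by that choice and adds nothing to the markers' own. All 16 further granule neuron genes were ranked, from 1 for Rfx3 to 7045 for Cadps2, with a median rank of 189.5. Their correlations ran from -0.0045 for Cadps2 to 0.99 for Rfx3, with a median of 0.88. Glis3 was at 0.81 and ranked at 476, and Pdzd2 was at 0.44 and ranked at 3268.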

How the data were processed

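Polyadenylated RNA of dorsal hippocampus was sequenced from 12 mice, 3 in each of 4 groups taken from the labels. The authors deposited a file of raw read counts by gene symbol for every library. Per the submitters' processing notes, the build was mm10 and the tools were HTSeq 0.9.1, TopHat2 2.1.1, Bowtie2 2.3.4.2, DESeq2 1.18.1 and cutadapt 1.18. Their 4 deposited comparison tables give, per the file headers, p-values raw and adjusted, a log2 fold change with its SE, a test score and a mean normalised count (signal).

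The analysis of counts used edgeR 4.0.16 under R 4.3.3. A gene was kept where filterByExpr passed it at a minimum count of 10 and a minimum total of 15. Libraries were scaled by TMM, and 1 robust quasi-likelihood model with 4 group means was fitted to all 12 libraries, with 8 residual degrees of freedom. Benjamini-Hochberg adjustment ran over all 15622 genes tested at a threshold of 0.05. The SE is that implied by the F statistic, and 95% intervals come from it. Single-gene permutation tests used all 924 splits of 6 against 6 libraries. Depth was 19737929 to 27427076 counts a library, and floors of 3 counts cover counting error only. No pair of libraries of a group held identical counts, and all pairs differed beyond sampling noise. Gene coordinates are those of a GENCODE annotation of mm10 and promoters are from RefSeq. The test was checked on simulated data with genes drawn independently, so the check does not cover variation that genes share within a library.

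Named genes were the 8 markers, Mbnl2, the 10 genes most alike to the markers over the libraries, up to 4 genes per other list with the smallest unadjusted p, and the most abundant gene of each list where a result turned on it. C1ql1, C1ql4, Jup and Gbx2 were named beyond this rule after their values were seen, and some genes that the rule picks are not reported here. The 8 markers and all lists were chosen with earlier results of these data known. Alternatives were scaling by the median of ratios or by total counts, DESeq2 1.42.0, all genes without a filter, a fit of the compared libraries alone, the run of animals as a covariate or its first part alone, and fits without single libraries or without libraries rich in neighbouring tissue.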

Additional observations from a re-analysis of the deposited data

How the results depend on the processing

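0 of the 8 markers were called in any comparison run under the 21 refits. Of these, 20 covered all 7 comparisons, and the fit of the compared libraries alone covered the 4 between single groups. DESeq2, one of them, called 5.04% of all genes for the mean genotype effect and gave Trpc6 the lowest adjusted p of any setting (0.105). The mean genotype effect kept 8 of 8 markers below 0 whichever library was left out, with medians from -0.71 without KO house control replicate 1 to -0.31 without WT house control replicate 1. As the markers varied together, these 8 signs are not separate outcomes. For Trpc6 the estimate then ran from -1.16 to -0.64 and the edgeR adjusted p from 0.157 to 0.412. No paired analysis was possible because the replicate numbers were given in accession order and so tie no libraries together. With 3 libraries a group the 95% intervals of these markers span differences beyond 2-fold in several comparisons, so a missing call does not show equal levels.

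The single estimates that changed side were none of them called, and their causes were not tested. With no filter on low counts, estimates on the other side of 0 were 0.0010 for C1ql2 (trained against house control in WT). With the run of animals as a covariate, estimates on the other side of 0 were 0.011 for C1ql2 and 0.057 for Trpc6 (trained against house control in WT). In the earlier run of animals alone, estimates on the other side of 0 were -0.020 for Prox1, -0.057 for Stxbp6 and -0.050 for Npnt (the mean training effect), 0.020 for Dsp (the difference between training effects). Without the 3 house control libraries highest in thalamus markers, more estimates were on the other side of 0. For trained against house control in WT they were -0.30 for Prox1, -0.28 for C1ql3, -0.28 for Dsp, -0.19 for Calb1, -0.40 for Stxbp6 and -0.33 for Npnt. For the mean training effect they were -0.23 for Prox1, -0.071 for C1ql3, -0.27 for Stxbp6, -0.14 for Trpc6 and -0.21 for Npnt. For the difference between training effects they were 0.14 for Prox1, 0.077 for C1ql2, 0.42 for C1ql3, 0.57 for Dsp, 0.26 for Stxbp6 and 0.25 for Npnt. Without KO replicate 2 of both treatments, estimates on the other side of 0 were 0.073 for Dsp (KO against WT in house controls), -0.046 for Stxbp6 and -0.0015 for Npnt (the mean training effect), -0.027 for Calb1 (the difference between training effects). Without the 3 libraries richest in striatum and septum transcripts, estimates on the other side of 0 were -0.11 for Stxbp6 and -0.077 for Npnt (trained against house control in WT), -0.094 for Prox1, -0.18 for Stxbp6 and -0.12 for Npnt (the mean training effect), 0.020 for C1ql3 and 0.014 for Dsp (the difference between training effects).

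Leaving out 1 library at a time also moved estimates across 0. For KO against WT in house controls, the ranges were -0.69 to 0.058 for Prox1, -0.77 to 0.14 for C1ql3, -0.59 to 0.12 for Dsp and -0.46 to 0.12 for Npnt. For KO against WT in trained mice, the ranges were -0.58 to 0.015 for Calb1. For trained against house control in WT, the ranges were -0.020 to 0.71 for Prox1, -0.33 to 0.41 for C1ql2, -0.048 to 0.62 for Calb1, -0.21 to 0.54 for Stxbp6, -0.34 to 0.48 for Trpc6 and -0.25 to 0.50 for Npnt. For trained against house control in KO, the ranges were -0.53 to 0.12 for Prox1, -0.85 to 0.50 for C1ql2, -0.085 to 0.63 for C1ql3, -0.25 to 0.47 for Dsp, -0.41 to 0.30 for Stxbp6 and -0.35 to 0.026 for Npnt. For the mean training effect, the ranges were -0.12 to 0.25 for Prox1, -0.43 to 0.25 for C1ql2, -0.16 to 0.23 for Stxbp6 and -0.20 to 0.17 for Npnt. For the difference between training effects, the ranges were -0.85 to 0.50 for C1ql2, -0.64 to 0.27 for C1ql3, -0.63 to 0.15 for Dsp, -0.27 to 0.41 for Calb1, -0.65 to 0.14 for Stxbp6 and -0.66 to 0.096 for Npnt.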
